A study of Homo sapiens with 18 samples.

Results

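The 10 genes MFN1, MFN2, OPA1, DNM1L, FIS1, MFF, PINK1, BNIP3, BNIP3L and FUNDC1, which act in the fusion, the fission or the removal of mitochondria, were chosen by name. All 10 were found among the 26485 genes counted. The data were RNAseq of SW620, an established human colon cancer line, in which LONP1, the ATP-dependent Lon protease of the mitochondrial matrix, was silenced with siLonp1. The other arm received a scramble siRNA. In each arm, Ctrl cells stayed at 37 °C, HS cells spent 1 h at 42 °C, and HS+REC cells had the same heat followed by 1 h at 37 °C, which gave 6 groups of 3 libraries and 18 libraries in all. All groups came from the same line, and every culture received an siRNA.

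Mitochondria fuse and divide continually. The mitofusins MFN1 and MFN2 join the outer membranes of neighbouring mitochondria and OPA1 joins the inner membranes, whereas the GTPase DNM1L, recruited by adaptors such as MFF and FIS1, cuts them. Mitophagy removes damaged mitochondria in autophagosomes: the kinase PINK1 accumulates on mitochondria that cannot import it and marks them for removal, whereas BNIP3, BNIP3L and FUNDC1 are outer membrane receptors that bind ATG8 proteins directly. These proteins are controlled to a large degree by cleavage, phosphorylation and turnover, none of which RNAseq measures.

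Library totals ran from 30815860 to 47279297 counts. LONP1 stood at 220.8 ± 5.56, 214 ± 15.7 and 218.4 ± 18.7 CPM (counts per 1000000 counts after TMM scaling, mean ± SD, n = 3) in the Ctrl, HS and HS+REC scramble libraries and at 20.44 ± 1.75, 11.72 ± 0.154 and 27.19 ± 1.64 CPM in the matching siLonp1 libraries, so every library followed its siRNA label. Of 8 markers of colon epithelium, 7 were above 1 CPM in every library, and the eighth, CDH17, ranged from 0.947 to 12.6 CPM. Summed markers of leukocytes stayed between 0.247 and 1.93 CPM and those of endothelium between 0.631 and 1.53 CPM. Of the 3 fibroblast markers COL3A1 was at 0 throughout and DCN did not exceed 0.163 CPM, while COL1A1 gave nearly all of the sum of 8 to 34.6 CPM.

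Per kilobase of the main (MANE Select) transcript, the members differed widely in level in Ctrl scramble cells. The fission adaptor FIS1 was the highest at 67.15 ± 2.29 CPM per kb, followed by MFN2 at 42.16 ± 0.495 CPM per kb. DNM1L at 33.3 ± 0.78 and OPA1 at 32.77 ± 1.02 CPM per kb did not differ beyond their SD. MFF came next at 23.69 ± 0.604 CPM per kb and FUNDC1 at 20.99 ± 0.827 CPM per kb. BNIP3L at 10.15 ± 0.339 and MFN1 at 10.06 ± 0.0629 CPM per kb did not differ beyond their SD either, and PINK1 stood below them at 6.778 ± 0.207 CPM per kb. BNIP3 was far below the others at 0.1301 ± 0.0798 CPM per kb. In this line MFN2 was thus the more abundant mitofusin mRNA and BNIP3L the more abundant of the paralogous receptors BNIP3 and BNIP3L. These levels assume that the main transcript is the one expressed.

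**Figure D1:**
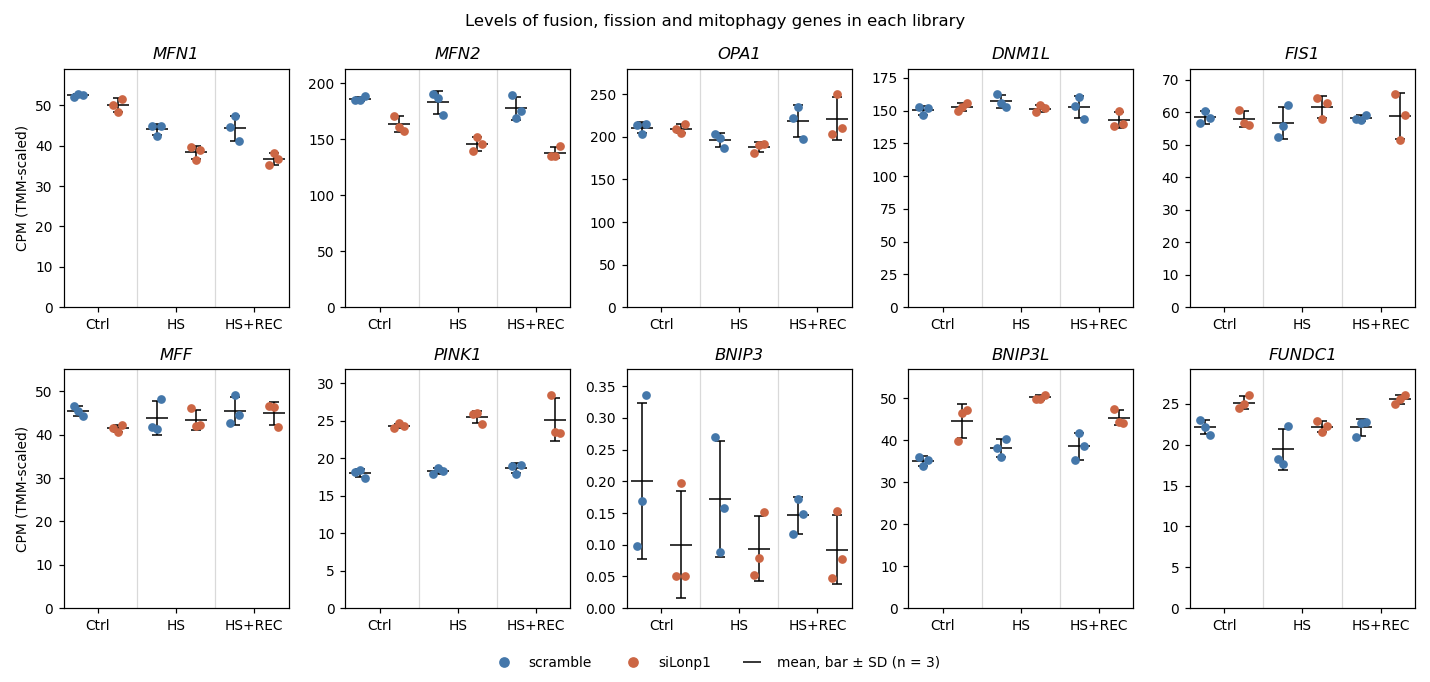
Level of each gene in every library, in CPM after TMM scaling on a linear axis from 0 that differs between panels; blue points are scramble libraries, orange points siLonp1 libraries, and the line and bar give the mean ± SD of 3 libraries. PINK1 and BNIP3L lie higher and MFN2 lower in every siLonp1 library than in every scramble library of the same condition, MFN1 lies lower in every heated library than in every Ctrl library of its arm, and BNIP3 does not exceed 0.3363 CPM.

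With siLonp1, the mitophagy genes that could be tested were called higher in all 3 conditions, MFN2 was called lower in all 3, and MFN1 was called lower in HS and HS+REC. PINK1 was raised by 35.1%, 39.5% and 34.5% in the Ctrl, HS and HS+REC cells, and BNIP3L by 27%, 31.8% and 17.6%. MFN2 fell by 12.2%, 20.2% and 22.3%. OPA1, DNM1L, FIS1 and MFF passed the threshold in none of the 3 conditions. By edgeR's quasi-likelihood test, in a model of all 18 libraries with Benjamini-Hochberg adjustment over 12832 genes, 4 of the 9 members tested were called at an adjusted p of at most 0.05 in Ctrl, where 49.2% of all genes were called. In HS 5 of 9 were called beside 54.8% of all genes, and in HS+REC 5 of 9 beside 54.1%. In these bulk libraries, fewer cells expressing a gene and less RNA per cell cannot be told apart. Their median absolute log2 fold change was 0.133, 0.199 and 0.207 in the 3 conditions, against 0.208, 0.239 and 0.231 over all genes tested, and no member moved by more than 2-fold, as 4.17%, 4.17% and 4.18% of all genes did past the threshold. All 3 mitophagy genes tested were called higher in each condition, where 26.3%, 28.1% and 26.8% of all genes were, and 1, 2 and 2 members, each a mitofusin, were called lower, where 22.9%, 26.7% and 27.3% were. The CPM of the arms did not overlap for 6, 4 and 5 of the 9 members, against 63%, 60.7% and 52% of all genes.

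PINK1, the sensor kinase, was at 18.19, 18.45 and 17.39 CPM in the Ctrl scramble libraries and at 24.1, 24.66 and 24.27 CPM in Ctrl siLonp1. After HS it was at 17.91, 18.63 and 18.3 CPM with scramble and at 25.86, 26.06 and 24.57 CPM with siLonp1. After HS+REC the scramble libraries gave 18.94, 17.94 and 19.15 CPM and the siLonp1 libraries 28.44, 23.52 and 23.39 CPM. All 9 siLonp1 libraries thus lay above all 9 scramble libraries, with replicate 1 of HS+REC siLonp1 the highest. The log2 fold change was 0.434 in Ctrl (SE 0.0717, adjusted p 2.96e-05), 0.48 in HS (SE 0.0719, adjusted p 7.24e-06) and 0.428 in HS+REC (SE 0.0714, adjusted p 2.67e-05).

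The exons of PINK1 overlap those of PINK1-AS, a noncoding RNA from the opposite strand. PINK1-AS had 37.7 to 49.9 counts per 100 counts of PINK1, and it too was higher with siLonp1, with log2 fold changes of 0.537, 0.424 and 0.359 in Ctrl, HS and HS+REC (adjusted p 7.68e-06, 0.000128 and 0.000621). The kit marks strand, but the strand setting of the counting is not given in the sources used here. Whether reads of the antisense gene contributed to the counts of PINK1, or the reverse, was not tested.

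BNIP3L (also named NIX), the receptor known for clearing mitochondria from maturing red blood cells, was at 36.01, 33.75 and 35.36 CPM in Ctrl scramble and at 39.82, 46.53 and 47.13 CPM in Ctrl siLonp1. In HS the scramble libraries were at 38.02, 35.9 and 40.37 CPM and the siLonp1 libraries at 49.89, 49.87 and 50.76 CPM. In HS+REC they were at 35.35, 41.7 and 38.53 CPM and at 47.37, 44.35 and 44.18 CPM. The arms overlapped in none of the 3 conditions, and the HS siLonp1 libraries were the highest of the 18. The log2 fold changes were 0.345 in Ctrl (SE 0.0712, adjusted p 0.000354), 0.399 in HS (SE 0.0711, adjusted p 5.97e-05) and 0.234 in HS+REC (SE 0.0709, adjusted p 0.00785). The HS+REC call rested on replicate 1 of HS+REC scramble, the lowest of its group: without it the log2 fold change was 0.176 (adjusted p 0.0612), and with library sizes alone in place of TMM it was 0.163 (adjusted p 0.0532).

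FUNDC1, the receptor of mitophagy under low oxygen, showed a smaller and less certain rise. It was at 22.98, 22.13 and 21.24 CPM in Ctrl scramble and 24.48, 24.96 and 26.03 CPM in Ctrl siLonp1. In HS the scramble libraries were at 18.28, 17.68 and 22.32 CPM and the siLonp1 libraries at 22.9, 21.51 and 22.26 CPM, and in HS+REC they were at 20.94, 22.7 and 22.75 CPM and at 24.99, 25.58 and 26.08 CPM. The arms overlapped in HS, through replicate 3 of HS scramble, and not in Ctrl or HS+REC. The log2 fold changes were 0.186, 0.2 and 0.207 (SE 0.0746, 0.076 and 0.0745, adjusted p 0.0431, 0.0295 and 0.0226). All 3 calls lay near the threshold. With library sizes alone the log2 fold changes were 0.111, 0.104 and 0.136 (adjusted p 0.218, 0.246 and 0.12). The Ctrl call was also lost with RLE size factors (0.175, adjusted p 0.0517), and the HS and HS+REC calls when only the groups compared were fitted (adjusted p 0.0721 and 0.0664). The Ctrl call was kept in 1 of 6 fits that left out a library, the fit without replicate 1 of Ctrl scramble, with log2 fold changes between 0.157 and 0.214. The HS call was lost without replicate 1 or 2 of HS scramble or replicate 1 or 3 of HS siLonp1 (range 0.136 to 0.297), and the HS+REC call without replicate 1 of HS+REC scramble or replicate 3 of HS+REC siLonp1 (range 0.169 to 0.228).

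**Figure D2:**
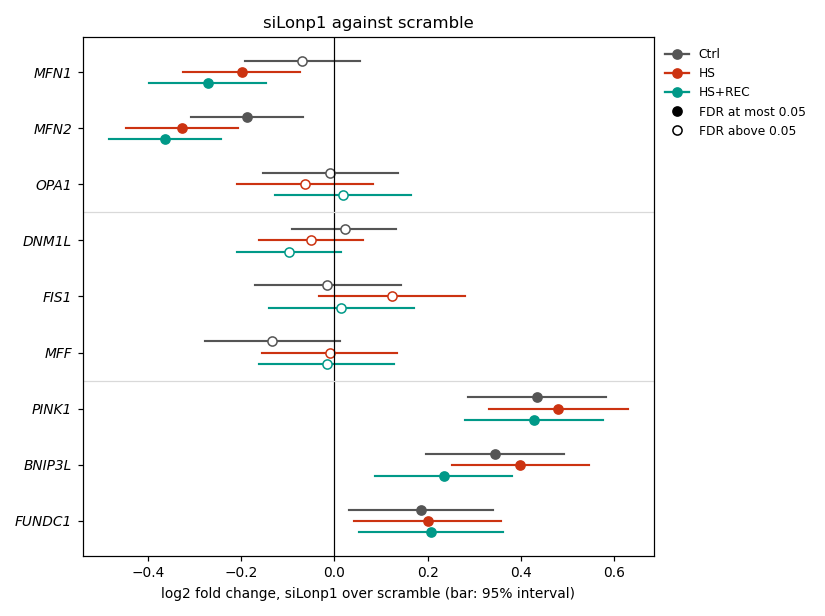
Effect of siLonp1 on the 9 members tested, as the log2 fold change of siLonp1 over scramble in Ctrl (grey), HS (red) and HS+REC (teal); bars are 95% intervals, filled points had an adjusted p of at most 0.05, and grey lines separate fusion, fission and mitophagy genes. PINK1, BNIP3L and FUNDC1 lie right of 0 in all 3 conditions, MFN2 lies left of 0 in all 3, and the fission genes DNM1L, FIS1 and MFF have intervals that include 0.

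BNIP3 was close to undetected. Its counts were 4, 8 and 14 in Ctrl scramble, 12, 4 and 5 in HS scramble and 5, 7 and 7 in HS+REC scramble. With siLonp1 they were 2, 8 and 2 in Ctrl, 2, 3 and 6 in HS, and 2, 6 and 3 in HS+REC. The 3 libraries together held 26, 21 and 19 counts with scramble and 12, 11 and 11 with siLonp1, and the arms overlapped in every condition. BNIP3 did not reach 1 CPM in any library and was left out of the main test. Without the filter its siLonp1 effect was negative in every condition, at -0.951 (SE 0.607, adjusted p 0.261) for the Ctrl cells. After HS it was -0.843 (SE 0.642, adjusted p 0.348), and after HS+REC it was -0.659 (SE 0.653, adjusted p 0.503). No contrast called BNIP3. None of them pooled the libraries of an arm over the 3 conditions, so a difference between the arms as a whole was not tested. Of the 75-base words of its transcript 20.7% also occur in the pseudogene BNIP3P1, so part of the few counts could depend on how shared reads were handled.

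BNIP3 is a well known target of the hypoxia factor HIF, and its promoter is shown because the gene stood apart from the other members by its low level. The 206 bases before the annotated gene start of BNIP3 lie at chr10:131981968-131982173 of hg38 on the minus strand (sequence from RefSeq, GRCh38.p14), with 37 CpG sites, 82.5% GC and 6 matches to the core of the hypoxia response element (ACGTG or GCGTG, sought on both strands), 2 of which overlap each other. Capitals mark the matches, which on the strand shown also read as their reverse complements.
BNIP3: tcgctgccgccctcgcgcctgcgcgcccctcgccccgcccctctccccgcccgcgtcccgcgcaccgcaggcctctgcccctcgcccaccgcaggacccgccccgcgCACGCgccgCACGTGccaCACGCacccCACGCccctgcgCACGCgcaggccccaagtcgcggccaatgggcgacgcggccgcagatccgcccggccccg
At least 1 such core occurs in 43.2% of the 35116 RefSeq promoter windows of 250 upstream bases, so a match alone is common. The share of windows with as many as 6 was not counted. The 250-base window of BNIP3 had a higher GC percent than 98% of all windows, and no windows of like GC were compared. Of 10 well known HIF targets, BNIP3 and BNIP3L not included, 8 were higher and 1 lower after HS in the scramble arm, where 18.6% of all genes were higher, and the same counts were found in the siLonp1 arm, where 20.2% were. With siLonp1, 4, 7 and 5 of the 10 were higher and 1, 1 and 0 lower in Ctrl, HS and HS+REC. Of all genes 26.3%, 28.1% and 26.8% were higher and 22.9%, 26.7% and 27.3% lower. In all, 50%, 80% and 50% were called, beside 49.2%, 54.8% and 54.1% of all genes. BNIP3 itself, without the filter, gave -0.196 (SE 0.544) and -0.088 (SE 0.714) after HS in the scramble and siLonp1 arms, neither of them called. The HIF targets were listed with earlier results of these data known. Whether HIF acted in these cells was not tested.

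Of the fusion genes, MFN2 was lower with siLonp1 in all 3 conditions. MFN2 also tethers mitochondria to the endoplasmic reticulum. It was at 184.6, 184.5 and 188.3 CPM in Ctrl scramble and 171, 160.7 and 157.5 CPM in Ctrl siLonp1. In HS it was at 190.1, 186.7 and 171.3 CPM with scramble and 139.6, 151.8 and 145.8 CPM with siLonp1, and in HS+REC at 189, 168.6 and 174.8 CPM and at 135.3, 135.3 and 143.4 CPM. The arms did not overlap in any condition, and the gap between them was narrowest in Ctrl. The log2 fold changes were -0.188 (SE 0.0581, adjusted p 0.00985), -0.326 (SE 0.0582, adjusted p 6.12e-05) and -0.363 (SE 0.0582, adjusted p 1.65e-05), and all 3 calls were kept in each of the 6 fits that left out a library.

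MFN1, the mitofusin with the stronger tethering activity between mitochondria, was called lower with siLonp1 in HS and HS+REC and not in Ctrl. In Ctrl it was at 52.11, 52.77 and 52.45 CPM with scramble and 50.15, 48.24 and 51.62 CPM with siLonp1, a log2 fold change of -0.069 (SE 0.0597, adjusted p 0.358) although the groups did not overlap. In HS it was at 44.84, 42.42 and 44.89 CPM with scramble and 39.65, 36.53 and 38.92 CPM with siLonp1, a log2 fold change of -0.199 (SE 0.0608, adjusted p 0.00824). In HS+REC it was at 44.53, 47.24 and 41.17 CPM and at 35.3, 38.09 and 36.64 CPM, a log2 fold change of -0.272 (SE 0.0606, adjusted p 0.00063). Heated siLonp1 libraries were the lowest of the 18, none of them above 39.65 CPM. Of the 75-base words of its transcript 4.57% also occur in other genes, whose reads could have been shared. The difference between the heated and Ctrl effects was not itself called, as given below for the interactions.

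OPA1, the inner membrane GTPase, was not called with siLonp1 in any condition, with log2 fold changes of -0.009, -0.064 and 0.019 and 95% intervals that stayed between -0.21 and 0.164. The fission genes gave no call either. DNM1L ranged from 138.2 to 162.5 CPM over the 18 libraries, with siLonp1 effects of 0.022, -0.05 and -0.098. FIS1 ranged from 51.49 to 65.55 CPM, with effects of -0.015, 0.123 and 0.015, and MFF from 40.72 to 49.19 CPM, with effects of -0.133, -0.01 and -0.017. The group means of these 3 genes spanned 0.14, 0.123 and 0.133 on the log2 scale, less than those of any other member, of which OPA1 had the next smallest span at 0.231. With library sizes alone, 3 of these 9 effects were called, all lower in siLonp1: DNM1L in HS (-0.147, adjusted p 0.0262) and HS+REC (-0.169, adjusted p 0.0121) and MFF in Ctrl (-0.208, adjusted p 0.0133). MFF in Ctrl was also called when only the groups compared were fitted (-0.151, adjusted p 0.0152), and DNM1L in HS+REC without replicate 3 of HS+REC scramble (-0.139).

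MFN1 was the only member called lower after heat in both arms and at both times. In the scramble arm it stood at 42.42 to 44.89 CPM after HS and 41.17 to 47.24 CPM after HS+REC, against 52.11 to 52.77 CPM in Ctrl, so heated and unheated libraries did not overlap. The log2 fold changes were -0.252 (SE 0.06, adjusted p 0.00196) and -0.244 (SE 0.0598, adjusted p 0.00198). In the siLonp1 arm they were -0.382 (SE 0.0606, adjusted p 1.69e-05) and -0.447 (SE 0.0606, adjusted p 1.42e-06), again with no overlap. These 4 calls were kept in each fit that left out a library. MFN1 was not called between HS and HS+REC, which gave log2 fold changes of 0.008 (95% interval -0.116 to 0.133) in the scramble arm and -0.065 (95% interval -0.192 to 0.061) in the siLonp1 arm.

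The promoter of MFN1 is shown because this gene was called for heat in both arms and at both times. The 250 bases before its annotated start lie at chr3:179347459-179347708 of hg38 on the plus strand (RefSeq, GRCh38.p14). They hold 8 CpG sites, 56.8% GC and no match, on either strand, to the HIF core or to the heat shock element (3 units alternating between GAA and TTC with 2 bases between them, which 0.441% of all windows hold), so nothing is in capitals.
MFN1: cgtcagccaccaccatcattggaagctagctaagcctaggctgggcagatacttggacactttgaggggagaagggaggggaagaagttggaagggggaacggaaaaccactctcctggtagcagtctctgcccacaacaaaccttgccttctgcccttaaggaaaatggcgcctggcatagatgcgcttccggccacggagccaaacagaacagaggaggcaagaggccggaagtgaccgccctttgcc
A heat shock element of this spelling was found in no window of the 8 members with a RefSeq promoter. PINK1 and BNIP3L had none in the table used.

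MFN2 was lowered by heat in the siLonp1 arm, from 157.5 to 171 CPM in Ctrl to 139.6 to 151.8 CPM in HS and 135.3 to 143.4 CPM in HS+REC, with no overlap. The log2 fold changes were -0.162 (SE 0.0583, adjusted p 0.0281) and -0.241 (SE 0.0583, adjusted p 0.00134). The HS call was lost without replicate 1 of Ctrl siLonp1 or replicate 1 or 3 of HS siLonp1, with values between -0.192 and -0.126. It was also lost when a CPM above 1 was required in all 18 libraries (-0.141, adjusted p 0.0555) and without a filter on low counts (-0.157, adjusted p 0.0725). In the scramble arm the heated libraries overlapped Ctrl, and the log2 fold changes were -0.024 (95% interval -0.144 to 0.096) and -0.066 (95% interval -0.186 to 0.054).

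FUNDC1 was at 18.28, 17.68 and 22.32 CPM after HS in the scramble arm against 21.24 to 22.98 CPM in Ctrl, a log2 fold change of -0.193 (SE 0.0756, adjusted p 0.0496). Replicate 3 of HS scramble lay within the Ctrl range, and the call was made in 1 of 6 fits that left out a library, the one without that replicate, with values between -0.275 and -0.129. It was also lost with a CPM above 1 required in all 18 libraries (-0.17, adjusted p 0.078) and without a filter on low counts (-0.186, adjusted p 0.0979). The same held with only the groups compared (-0.182, adjusted p 0.0989) and with a replicate block (-0.195, adjusted p 0.0512). In the siLonp1 arm the HS effect was -0.179 (adjusted p 0.0591). BNIP3L after HS was at 0.119 (adjusted p 0.205) in the scramble arm and 0.173 (adjusted p 0.0521) in the siLonp1 arm on the log2 fold change scale; the latter ranged from 0.1 to 0.216 over the 6 fits that left out a library. It was called in 2 of them, without replicate 2 or 3 of Ctrl siLonp1, and by DESeq2 (0.176, adjusted p 0.0398). PINK1 was not called for heat in either arm, with log2 fold changes between 0.021 and 0.067.

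Counted over the members, 2 of 9 were called lower and 0 higher after HS in the scramble arm, where 36% of all genes were called, 17.3% lower. In the siLonp1 arm HS lowered 2 of 9 (42.2% of all genes, 22.1% lower). HS+REC lowered 1 of 9 in the scramble arm (42.3% of all genes, 20.5% lower) and 2 of 9 in the siLonp1 arm (51.2% of all genes, 26.6% lower). The count for HS in the siLonp1 arm became 5 of 9 when only the 2 groups compared were fitted, with OPA1, FUNDC1 and BNIP3L added, and 4 of 9 with library sizes alone. The members' median absolute log2 fold changes were 0.062, 0.157, 0.051 and 0.079, beside 0.16, 0.184, 0.179 and 0.219 over all genes. The CPM did not overlap with Ctrl for 2, 5, 1 and 3 of the 9 members, against 50.2%, 54.2%, 51.7% and 55.4% of all genes. No test of these shares was made. The 2 HS comparisons share their Ctrl libraries with the 2 HS+REC comparisons of the same arm.

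**Figure D3:**
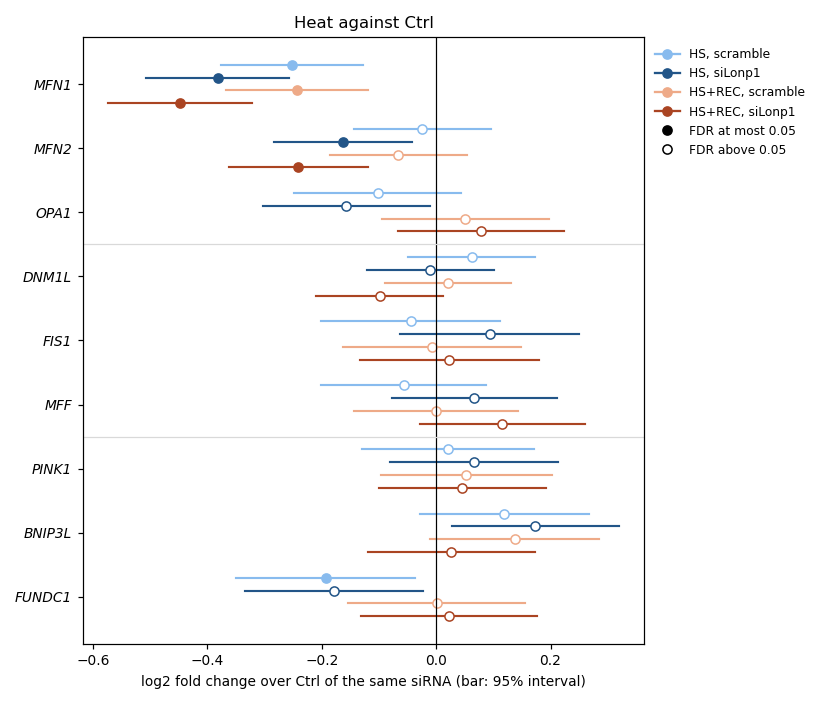
Effect of heat on the 9 members tested, as the log2 fold change over the Ctrl libraries of the same siRNA; bars are 95% intervals, filled points had an adjusted p of at most 0.05, and grey lines separate fusion, fission and mitophagy genes. MFN1 is filled and left of 0 in all 4 comparisons, MFN2 in both of the siLonp1 arm, and no fission gene is filled.

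Between HS and HS+REC, OPA1 and FUNDC1 were called higher in the siLonp1 arm and had positive values that were not called in the scramble arm. OPA1 was at 181.5, 190.4 and 191.8 CPM in HS siLonp1 and at 203.6, 250.1 and 210 CPM in HS+REC siLonp1, which did not overlap. The log2 fold change was 0.236 (SE 0.0705, adjusted p 0.012), and without replicate 2 of HS+REC siLonp1, the highest OPA1 library of all, it was 0.138 (adjusted p 0.121). FUNDC1 gave 0.201 (SE 0.0749, adjusted p 0.0429), a call lost in each of the 6 fits that left out a library, with values between 0.178 and 0.223. In the scramble arm OPA1 gave 0.154 (adjusted p 0.115), called in 1 of 6 such fits (range 0.097 to 0.22), and FUNDC1 gave 0.194 (adjusted p 0.0609), called in 2 of 6 (range 0.13 to 0.285). The difference between the arms in this comparison was not tested. Thus 2 of 9 members were called between HS and HS+REC with siLonp1, where 31.9% of all genes were, and 0 of 9 with scramble, where 26.8% were. With scramble 2 had an unadjusted p under 0.05, and DESeq2 called 0. The CPM did not overlap for 3 members with siLonp1 and 0 with scramble, against 40.2% and 34.7% of all genes.

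Whether the effect of heat on the members differed between the arms was tested by the interaction. It called 0 of 9 members for HS, where 1.87% of all genes were called, and 0 of 9 for HS+REC, where 1.58% were. DESeq2 also called 0 in both, and 0 and 2 members had an unadjusted p under 0.05. These 2 were the mitofusins in HS+REC, with interactions of -0.204 for MFN1 (95% interval -0.38 to -0.027, adjusted p 0.277) and -0.175 for MFN2 (95% interval -0.345 to -0.005, adjusted p 0.348). Their interactions with HS were -0.13 (95% interval -0.306 to 0.046) and -0.138 (95% interval -0.308 to 0.032). PINK1 had -0.006 (95% interval -0.215 to 0.203) in HS+REC and 0.046 (95% interval -0.164 to 0.256) in HS. The calls of MFN1 and MFN2 in some conditions and not in others are therefore not shown to differ between arms. LONP1 itself was called, at -0.758 for HS (adjusted p 0.000468) and 0.427 for HS+REC (adjusted p 0.0321). The second was called in 3 of 12 fits that left out a library. In the siLonp1 arm LONP1 changed by -0.802 after HS and 0.411 after HS+REC. An effect of heat and one of the depth of silencing cannot be told apart in these interactions.

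A wider list of the same machinery, of which 47 genes were tested, put the members in context. With siLonp1, 14 of 47 were higher and 10 lower in Ctrl, 17 and 16 in HS, and 16 and 16 in HS+REC, which is 51.1%, 70.2% and 68.1% called beside the 49.2%, 54.8% and 54.1% of all genes. After HS, 3 were higher and 11 lower in the scramble arm and 5 and 12 in the siLonp1 arm, which is 29.8% and 36.2% called beside 36% and 42.2% of all genes. After HS+REC 9 were higher and 11 lower with scramble, and 11 and 14 with siLonp1, which is 42.6% and 53.2% beside 42.3% and 51.2%. Between HS and HS+REC 12 rose and 4 fell with scramble, and 11 rose and 4 fell with siLonp1, which is 34% and 31.9% beside 26.8% and 31.9%. No test of these shares was made. The genes below were named for the size of their change in at least 1 comparison.

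Of the 5 ATG8 proteins, to which the mitophagy receptors bind, 2, 3 and 3 were higher with siLonp1 in Ctrl, HS and HS+REC, where 26.3%, 28.1% and 26.8% of all genes were, and 0 were lower. MAP1LC3B, the LC3 protein used as a marker of autophagosomes, had siLonp1 effects of 0.542, 0.69 and 0.673 (adjusted p 1.58e-06, 3.86e-08 and 4.43e-08). It was also raised by heat, with log2 fold changes of 0.307 and 0.455 for HS and 0.551 and 0.682 for HS+REC in the scramble and siLonp1 arms. GABARAPL2 was higher with siLonp1 in all 3 conditions (0.366, 0.57 and 0.499, adjusted p 5.96e-05, 1.46e-07 and 8.35e-07).

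Of the 14 mitophagy receptors, kinases and ligases tested, 4, 4 and 3 were higher and 3, 5 and 5 lower with siLonp1 in Ctrl, HS and HS+REC, which is 50%, 64.3% and 57.1% called beside 49.2%, 54.8% and 54.1% of all genes. ULK1, the kinase that starts autophagosome formation, was higher in all 3 conditions (0.346, 0.586 and 0.55, adjusted p 0.00836, 6.23e-05 and 0.00012). NLRX1, a mitochondrial NOD-like protein, was lower in all 3 (-0.581, -0.617 and -0.655). With heat, TBK1, which phosphorylates mitophagy adaptors, was lower in both arms, at -0.417 with scramble and -0.753 with siLonp1 after HS (adjusted p 0.000294 and 8.19e-08) and at -0.366 and -0.839 after HS+REC (adjusted p 0.000784 and 1.1e-08). The difference between the arms was called for HS+REC (interaction -0.473, adjusted p 0.0359), but in 4 of 12 fits that left out a library (range -0.557 to -0.392), and not for HS (-0.337, adjusted p 0.147). The deubiquitinase USP30, which opposes PINK1-driven mitophagy, rose from HS to HS+REC in the scramble (0.586, adjusted p 8.99e-06) and siLonp1 arms (0.64, adjusted p 2.06e-06), and was higher in HS+REC than in Ctrl in both (0.48 and 0.391, adjusted p 4.99e-05 and 0.000369). The adaptor TAX1BP1 rose from HS to HS+REC in both arms (0.461 with scramble and 0.416 with siLonp1) and was higher in HS+REC than in Ctrl in both (0.458 and 0.568). NLRX1 fell from HS to HS+REC in both arms (-0.269 and -0.307). The adaptor SQSTM1 fell with siLonp1 (-0.273, adjusted p 0.000436) and gave -0.138 with scramble (adjusted p 0.0694).

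For 3 other genes of this group a call was lost in some fits that left out a library. AMBRA1 fell from HS to HS+REC with scramble (-0.258, adjusted p 0.0188), a call lost without replicate 1 or 2 of HS scramble or replicate 2 or 3 of HS+REC scramble (range -0.344 to -0.216), and gave -0.003 with siLonp1 (adjusted p 0.984). OPTN was higher after HS with siLonp1 (0.243, adjusted p 0.0226), lost without replicate 1 or 2 of Ctrl siLonp1 or replicate 1 or 3 of HS siLonp1 (range 0.2 to 0.306), and gave 0.152 with scramble (adjusted p 0.169). TOMM7, which stabilizes PINK1 on the outer membrane, was higher in the same comparison (0.249, adjusted p 0.0135), lost without replicate 2 of Ctrl siLonp1 or replicate 1 of HS siLonp1 (range 0.196 to 0.291), and gave 0.044 with scramble (adjusted p 0.705). In HS+REC against Ctrl, OPTN was higher with scramble (0.303, adjusted p 0.0051) and with siLonp1 (0.248, adjusted p 0.0164). The siLonp1 call was made in 3 of 6 fits that left out a library (range 0.146 to 0.311). TOMM7 in HS+REC against Ctrl was higher with siLonp1 (0.276, adjusted p 0.00532) and gave 0.146 with scramble (adjusted p 0.144).

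Of the 10 wider fusion genes, 1, 2 and 2 were higher and 4, 4 and 5 lower with siLonp1, which is 50%, 60% and 70% called beside 49.2%, 54.8% and 54.1% of all genes. OMA1, the stress-activated protease that cleaves OPA1, was lower in all 3 conditions (-0.712, -0.534 and -0.611, adjusted p 1.59e-06, 6.57e-05 and 8.2e-06). PLD6, a lipase of the outer membrane, was higher with siLonp1 in Ctrl (0.579, adjusted p 0.000164), HS (0.333, adjusted p 0.0205) and HS+REC (0.813, adjusted p 6.91e-06). The HS call was lost without replicate 1 of HS scramble or replicate 1 or 2 of HS siLonp1 (range 0.267 to 0.411). PLD6 was lower with heat in all 4 comparisons, at -0.499 after HS and -1.081 after HS+REC in the scramble arm and at -0.746 and -0.847 in the siLonp1 arm. From HS to HS+REC it fell by 0.582 with scramble and gave -0.101 with siLonp1 (adjusted p 0.558). The second value ranged from -0.322 to 0.036 over the fits that left out a library and was called without replicate 3 of HS+REC siLonp1, and this difference between the arms was not tested.

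FAM73A (MIGA1), which acts with the mitofusins, was lower after HS with siLonp1 (-0.404, adjusted p 0.00135) and gave -0.231 with scramble (adjusted p 0.0527, called in 2 of 6 fits that left out a library). It rose from HS to HS+REC in the scramble (0.364, adjusted p 0.00392) and siLonp1 arms (0.547, adjusted p 7.21e-05), and HS+REC against Ctrl gave 0.133 and 0.144 (adjusted p 0.251 and 0.206), the first being called without replicate 3 of HS+REC scramble (0.247). AFG3L2, an inner membrane protease, fell from HS to HS+REC in both arms (-0.227 and -0.34, adjusted p 0.00196 and 2.12e-05) and was lower in HS+REC than in Ctrl in both (-0.378 and -0.67, adjusted p 2.74e-06 and 2.66e-10). MSTO1 was lower with heat in both arms, at -0.51 and -0.464 after HS and HS+REC with scramble (adjusted p 0.0087 and 0.0122) and at -0.447 and -0.441 with siLonp1 (adjusted p 0.032 and 0.0282). Its scramble calls were lost without replicate 3 of HS scramble (adjusted p 0.0552) and without replicate 3 of HS+REC scramble (adjusted p 0.0528). Its siLonp1 calls were each kept in 2 of 6 fits that left out a library: that of HS was lost without replicate 2 or 3 of Ctrl siLonp1 or replicate 1 or 3 of HS siLonp1 (range -0.57 to -0.345), and that of HS+REC without replicate 2 or 3 of Ctrl siLonp1 or of HS+REC siLonp1 (range -0.564 to -0.36).

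Of the 13 wider fission genes, 5, 6 and 6 were higher and 2, 5 and 4 lower with siLonp1, which is 53.8%, 84.6% and 76.9% called beside 49.2%, 54.8% and 54.1% of all genes. GDAP1, whose overexpression fragments mitochondria, was lower in all 3 conditions (-0.628, -0.65 and -0.688, with the largest adjusted p at 1.14e-07). MIEF2, a receptor for DNM1L, had the largest heat effect of the list: -1.454 and -2.082 after HS in the scramble and siLonp1 arms, and -1.417 and -1.265 after HS+REC. From HS to HS+REC it rose with siLonp1 (0.818, adjusted p 0.00274) and gave 0.036 with scramble (adjusted p 0.917), a difference that was not tested. Its interactions were not called for HS (-0.629, adjusted p 0.227) or HS+REC (0.153, adjusted p 0.84). PGAM5, a mitochondrial phosphatase that can dephosphorylate DNM1L, was higher in HS+REC than in Ctrl in both arms (0.513 and 0.518) and rose from HS to HS+REC in both (0.409 and 0.35). MARCH5 (now MARCHF5), a ubiquitin ligase of the outer membrane, was higher after HS with scramble (0.219, adjusted p 0.0177), lost without replicate 3 of Ctrl scramble or replicate 2 of HS scramble (range 0.184 to 0.248), and gave 0.113 with siLonp1 (adjusted p 0.209). In HS+REC against Ctrl it was higher with scramble (0.22, adjusted p 0.0141, called in 4 of 6 fits that left out a library) and with siLonp1 (0.233, adjusted p 0.00751). DNM2 was higher after HS with scramble (0.156, adjusted p 0.0333), but was called in 1 of 6 fits that left out a library, the one without replicate 3 of HS scramble (range 0.141 to 0.21), and gave 0.074 with siLonp1 (adjusted p 0.313).

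Among the 5 genes of mitochondrial transport, 2 were higher in each condition with siLonp1 and 1, 2 and 2 lower, which is 60%, 80% and 80% called beside 49.2%, 54.8% and 54.1% of all genes. The motor KIF5B was higher in Ctrl, HS and HS+REC (0.395, 0.323 and 0.23, adjusted p 0.000213, 0.00129 and 0.0162), the last call being lost without replicate 3 of HS+REC scramble or replicate 2 of HS+REC siLonp1 (range 0.141 to 0.313). The adaptor GTPase RHOT2 was lower in all 3 (-0.408, -0.577 and -0.575, adjusted p 5.58e-05, 5.48e-07 and 5.1e-07).

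**Figure D4:**
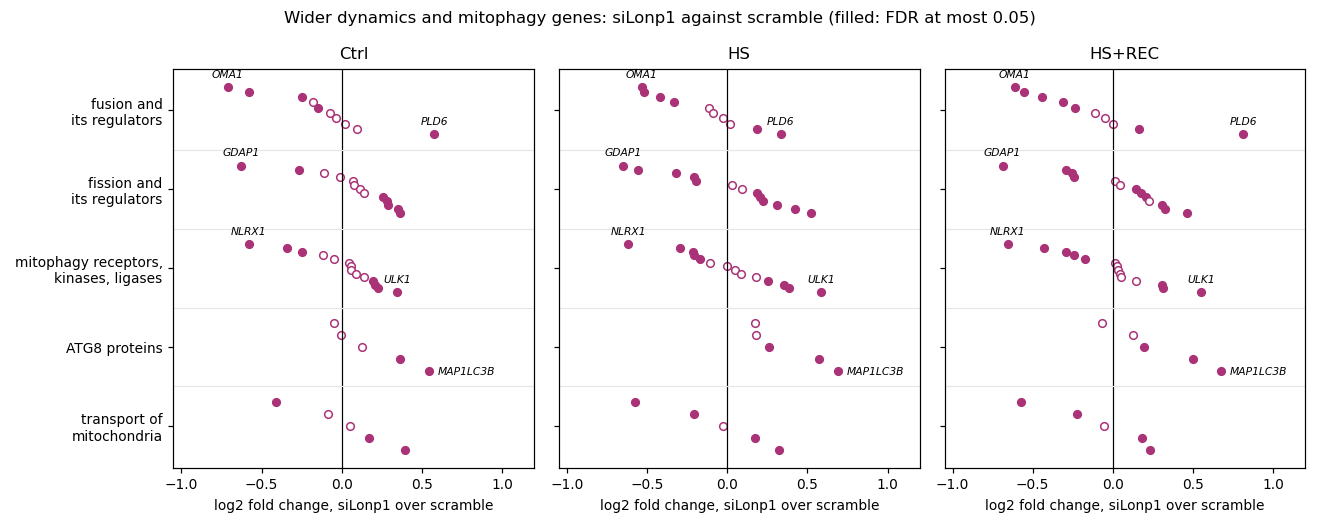
The 47 genes of the wider list that were tested, as the log2 fold change of siLonp1 over scramble in Ctrl, HS and HS+REC; each point is a gene, ordered by value within its group, and filled points had an adjusted p of at most 0.05. MAP1LC3B, ULK1 and PLD6 lie right of 0 and OMA1, GDAP1 and NLRX1 left of 0 in each panel.

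BNIP3 and BNIP3L had the widest range of group means among the members, 0.775 and 0.517 on the log2 CPM scale. MFN1 and PINK1 were close to BNIP3L at 0.516 and 0.501, and the range of BNIP3 rests on 2 to 14 counts per library. The genes whose 6 group means followed BNIP3L most closely were FKBP8 (Pearson r 0.9968), itself a mitophagy receptor of the wider list, CUL7 (0.9958) and CORO1B (0.9941). With 6 points such values are common, and 807 genes had an r above 0.9 with BNIP3L. For BNIP3 the closest were C9orf9, ARHGEF39 and C17orf58 (0.9983, 0.9956 and 0.9955), which rest on 11 to 26 counts of BNIP3 in a group.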

How the data were processed

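The authors prepared TruSeq Stranded mRNA libraries from 3 independent biological replicates per group, aligned paired-end NovaSeq reads to hg38 with STAR 2.7.3a, and counted UCSC genes with featureCounts in R 3.6.3. The values used are the deposited raw counts per gene. The strand setting, the handling of shared reads, the annotation release and the siRNA sequence used for RNAseq are not given in the sources used here. Replicates differed by more than sampling noise (chi-square per degree of freedom 3.48 to 25.8), so none was counted as a duplicate.

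Genes above 1 CPM in at least 3 libraries were kept, following the study's methods, which left 12832. The test was that of edgeR 4.0.16 under R 4.3.3 (TMM, quasi-likelihood, prior count 0.125, 1 model over 18 libraries), checked first on simulated data. A call was a Benjamini-Hochberg adjusted p of at most 0.05 at any fold, and SE and 95% intervals came from the quasi-likelihood statistic. The alternatives tried were size factors by RLE, library sizes alone, other filters, DESeq2 1.42.0, fewer groups, a replicate block, stricter thresholds, a prior count of 2 and leaving out each library.

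The members and the other lists were chosen with earlier results of these data known. Named were the 10 members, LONP1, up to 3 genes of the wider list with the largest change in each direction among those called in a contrast, and the 3 genes most like each of the 2 members with the widest range. PINK1-AS was added after its counts were seen. Of the HIF targets only counts were given. Of the wider list 1 gene is not reported here. Listed genes were matched by symbol or RefSeq synonym. Overlapping genes and transcript lengths came from a GENCODE annotation of hg38. Counting error was not separated from PCR duplicates.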

Additional observations from a re-analysis of the deposited data

Results flagged for a closer look

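By the interaction term of edgeR's quasi-likelihood model, the effect of HS+REC was called different between the siRNA arms for 2 of 47 genes of the wider list. That is 4.26%, beside 1.58% of all genes. For HS 0 of 47 were called, beside 1.87% of all genes. For TBK1 the interaction was -0.473 on the log2 scale (SE 0.116, adjusted p 0.0359), with a lower HS+REC effect in the siLonp1 arm. It was called in 4 of 12 fits that left out a library, with values between -0.557 and -0.392. For AFG3L2 it was -0.292 (SE 0.0743, adjusted p 0.0458), called in 2 of 12 such fits, with values between -0.332 and -0.25. No member of the fusion, fission and mitophagy genes had an interaction past the threshold. LONP1 itself was called for HS+REC (0.427, adjusted p 0.0321), so heat and the depth of silencing cannot be told apart here.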

How the results depend on the processing

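Over the alternatives, 1692 log2 fold changes of the members were recomputed: 1599 kept their side of the threshold, 72 lost and 21 gained a call, and no called value changed sign. Among the 1599 were 91 changes of sign, of values called in neither fit, where the reported value was at most 0.079 in size. After HS in the scramble arm the count of called members was 2 and became 1 with CPM above 1 in all 18 libraries, without a filter, with the 2 groups alone, at an adjusted p of 0.01 and with the replicate block. In the siLonp1 arm it was 2 and became 1 at 0.01 and without a filter, 3 with DESeq2 and with RLE size factors, 4 with library size only and 5 with the 2 groups alone. HS+REC against Ctrl went from 1 to 2 with scramble and from 2 to 3 with siLonp1 with library size only. HS+REC against HS with siLonp1 went from 2 to 0 at 0.01 and to 1 with library size only and without a filter. For siLonp1 the count in Ctrl went from 4 to 3 at 0.01 and with RLE size factors and to 5 with the 2 groups alone, that in HS from 5 to 4 at 0.01 and with the 2 groups alone, and that in HS+REC from 5 to 4 at 0.01, with library size only and with the 2 groups alone. Requiring a fold above 2 left 0 members in every comparison. Without 1 library, the counts ranged over 1 to 2 and 1 to 3 for HS in the scramble and siLonp1 arms, 1 to 2 for HS+REC with scramble, 0 to 1 for HS+REC against HS in each arm, and 3 to 6 for siLonp1 in HS+REC. In that last comparison the count of 3 came without replicate 1 of HS+REC scramble.

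Library size only shifted the median of all genes to between -0.096 and -0.012, against -0.016 to 0.015 with TMM, and also called MFN2 lower in HS+REC scramble (-0.149, adjusted p 0.0444), DNM1L lower in HS+REC siLonp1 (-0.179, adjusted p 0.00853), and OPA1 (-0.206) and FUNDC1 (-0.227) lower in HS siLonp1. The cause of the changes in calls was not tested. Same-numbered replicates deviated together in 10 of 45 pairs (r above 0.1, median -0.022), and 7 of 18 libraries correlated best with their own number, so the numbers were not taken as pairs. The replicate block changed 1 call, FUNDC1 after HS with scramble (adjusted p 0.0512).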
